A study of Mus musculus with 24 samples.

Results

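The receptor for interleukin-4 (IL-4) and interleukin-13 (IL-13) and the genes that carry or restrain its signal were followed in bone marrow–derived macrophages (BMDM). The set held 10 genes, chosen by name: the receptor chains Il4ra, Il13ra1 and Il2rg, the kinases Jak1, Jak3 and Tyk2, the transcription factor gene Stat6, the adaptor gene Irs2, and the inhibitors Socs1 and Cish. Each symbol matched 1 of the 56884 gene identifiers in the count table, and all 10 were among the 13679 genes that passed the filter on low counts. RNA came from cultures of 4 adult female wild-type (WT) C57BL/6J mice, numbered 1, 2, 4 and 5. Bone marrow had been differentiated with macrophage colony-stimulating factor (M-CSF), which every group received, and each mouse gave 1 library in each of 6 conditions. Naive cells received no cytokine. The other 5 groups received IL-4 and IL-13, each at 20 ng/ml, for 24 hours. In 4 of these an inhibitor was given for 1 hour beforehand and then together with the cytokines. Tunicamycin (5 µg/ml) blocks N-linked glycosylation in the endoplasmic reticulum, Sal003 (10 µM) inhibits the dephosphorylation of eIF2α, and oligomycin (1 µM, 2 groups) inhibits the mitochondrial ATP synthase. One oligomycin group also had ISRIB (1 µM), which counteracts the integrated stress response, but the titles and the library names of these samples disagree on which. They are called oligomycin set A, where the title names ISRIB, and oligomycin set B, where the library name does. The conflict was not settled from measured values. No group received an inhibitor without cytokines, so that the effect of an inhibitor on naive cells was not measured.

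IL-4 binds IL-4Rα, the product of Il4ra, which then pairs with the common γ chain (Il2rg) in the type I receptor or with IL-13Rα1 (Il13ra1) in the type II receptor. IL-13 binds IL-13Rα1 and uses the type II receptor. The receptor-bound kinases JAK1, JAK3 and TYK2 phosphorylate the receptor, on which STAT6 and IRS2 dock. STAT6 then enters the nucleus and activates the genes of alternative macrophage activation, while IRS2 leads to PI3K signalling. SOCS1 and CIS (Cish) belong to the suppressor of cytokine signalling family, whose members are induced by cytokines and dampen JAK-STAT signals.

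The counts on genes added up to 16238727 in the smallest library and 26725278 in the largest. The macrophage identity of the cultures was checked with 6 macrophage markers, whose summed level was 4955 to 11162 counts per 1000000 (CPM) and which included Adgre1 and Csf1r. This sum was 9411 to 11162 CPM in naive cells, 5735 to 6914 CPM with IL-4/IL-13, 7617 to 8943 CPM with tunicamycin, 7340.4 to 7779 CPM with Sal003, 4955 to 5227 CPM in oligomycin set A and 7439 to 7734 CPM in oligomycin set B. Markers of T and NK cells, in which Il2rg, Jak3 and Cish are also used, summed to at most 0.398 CPM, and all 6 had 3 counts or fewer in every library except Trac in naive cells. The 4 mast cell and basophil markers summed to at most 1.31 CPM. The 5 B cell markers summed to 1.39 to 2.90 CPM in naive cells, 1.05 to 2.17 CPM with IL-4/IL-13, 2.36 to 3.24 CPM with tunicamycin and 0.157 to 0.986 CPM with the other inhibitors, with Pax5 at 3 counts or fewer throughout. The 4 dendritic cell markers summed to 3.91 to 7.16 CPM in naive cells, 5.69 to 7.41 CPM with IL-4/IL-13 and 0.964 to 2.52 CPM with inhibitors. Markers of neutrophils and of stromal cells also moved with the conditions. The 6 neutrophil and precursor markers summed to 22.0 to 43.4 CPM in naive cells, 11.8 to 23.2 CPM with IL-4/IL-13, 9.75 to 12.8 CPM in oligomycin set B, 3.32 to 5.10 CPM with Sal003, 1.40 to 2.79 CPM in oligomycin set A and 0.0513 to 0.255 CPM with tunicamycin, and Ly6g had 3 counts or fewer throughout. The 4 fibroblast and stromal markers ranged from 19.2 to 137 CPM in naive cells, 16.4 to 85.8 CPM with IL-4/IL-13, 3.62 to 25.4 CPM with tunicamycin, 7.77 to 47.7 CPM with Sal003, 5.95 to 53.7 CPM for set A and 8.32 to 52.4 CPM for set B. The part of these cells in the results was not tested. In these bulk samples, fewer cells of a type and less RNA per cell cannot be told apart.

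Cish and Socs1, the inhibitors with the widest range among the 10 genes, differed in the sequence around 1 start site of each. The RefSeq promoter windows hold 250 bases before and 50 bases after the start of transcription, and each matched GRCm39 exactly at 1 place on its chromosome. The window of Cish lies at chr9:107173608-107173907 on the plus strand, and that of Socs1 at chr16:10603351-10603650 on the minus strand. Both lie inside the annotated spans of their genes (chr9:107173225-107179983 and chr16:10600104-10603875). Each member had 1 window, so other annotated starts, such as those further upstream, were not searched. They are shown because both genes rose strongly with the cytokines but of these 2 only Cish was lower with every inhibitor. Capitals mark the matches to TTCNNNGAA, the spacing bound by most STAT proteins.
Cish: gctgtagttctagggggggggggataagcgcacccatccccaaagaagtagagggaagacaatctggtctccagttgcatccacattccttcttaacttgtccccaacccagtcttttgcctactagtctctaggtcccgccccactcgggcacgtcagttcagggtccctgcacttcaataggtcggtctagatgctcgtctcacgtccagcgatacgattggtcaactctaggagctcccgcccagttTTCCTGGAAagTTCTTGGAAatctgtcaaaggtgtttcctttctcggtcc
Socs1: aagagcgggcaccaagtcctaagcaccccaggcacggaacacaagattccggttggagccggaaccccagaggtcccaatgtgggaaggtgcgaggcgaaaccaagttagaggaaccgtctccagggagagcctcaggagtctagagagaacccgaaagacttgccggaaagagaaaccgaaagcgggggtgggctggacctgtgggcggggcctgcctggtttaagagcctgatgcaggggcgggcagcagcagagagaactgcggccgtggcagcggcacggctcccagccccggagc
The Cish window held TTCCTGGAA at positions 1 to 9 and TTCTTGGAA at positions 12 to 20, counted from the start site. Of the 10 members, 1 held this motif on either strand (Cish), as did 8.30% of the 32851 windows in the table, and 0.457% of windows held it at 2 or more places. The wider spacing that STAT6 also binds, TTC and GAA with 4 free bases between them, was in no member's window and in 6.95% of all windows. TGATGNAA, the joint motif of CHOP and ATF4, was likewise in none of the 10 and in 3.97% of all. Irs2, which also rose with the cytokines and was lower with every inhibitor, held none of these motifs in its window. A match is a description of these letters and not a measured binding site.

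**Figure D1:**
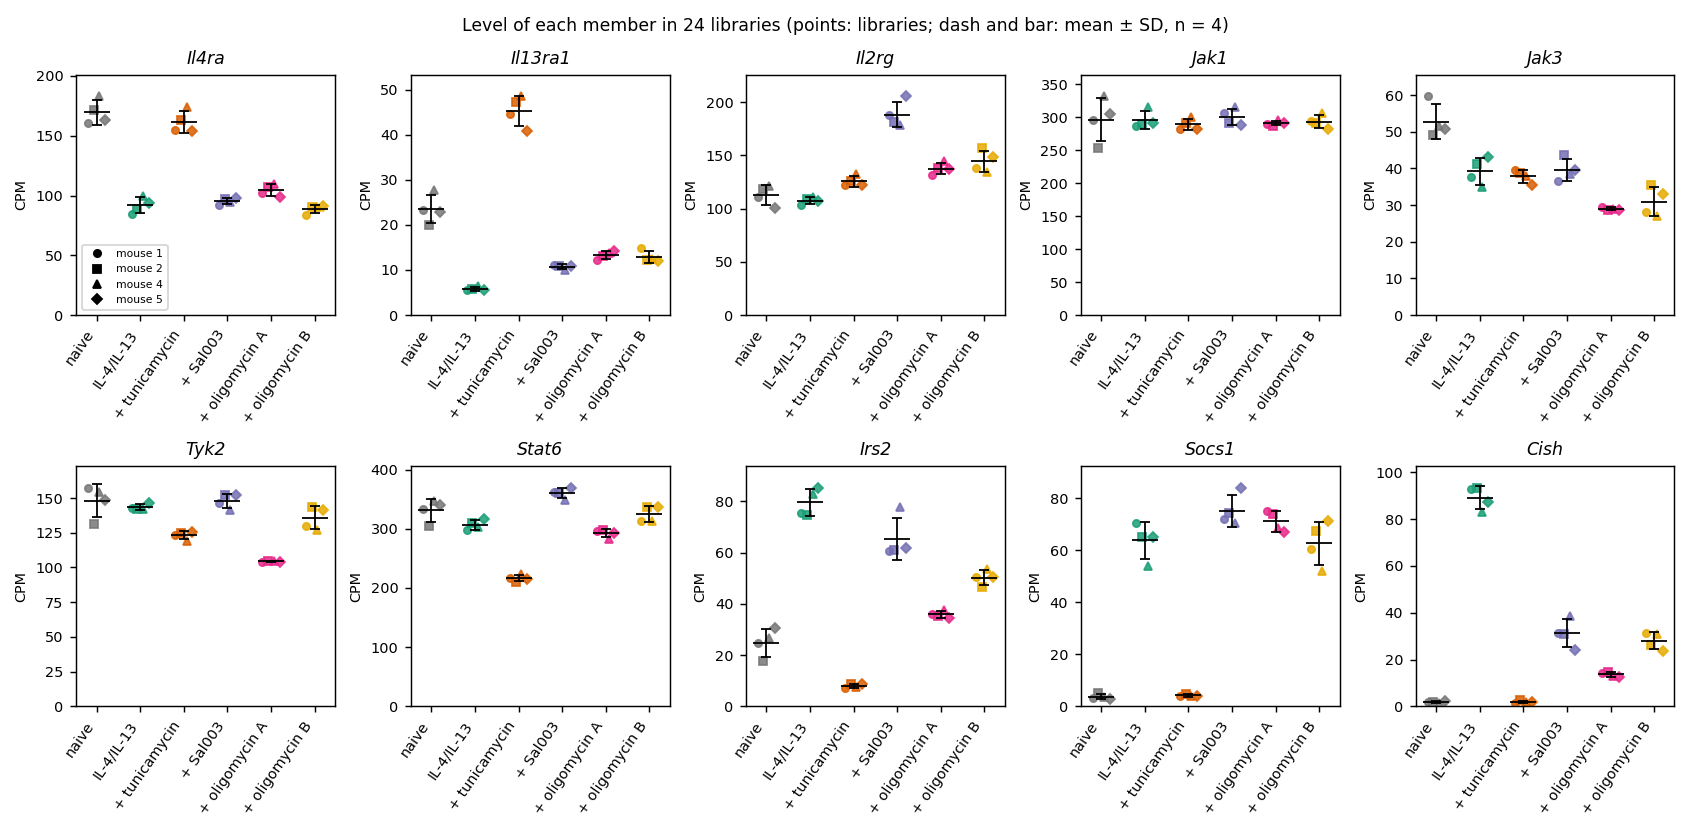
CPM (y axis, linear from 0) of the 10 genes in the 6 conditions (x axis), with 1 point per library, a marker shape per mouse, and the mean ± SD (n = 4). Socs1 and Cish are near 0 in naive cells and with tunicamycin, Jak1 is level throughout, and Il13ra1 is highest with tunicamycin.

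With IL-4/IL-13 against naive cells, 3 of the 10 members rose (Irs2, Socs1 and Cish) and 4 fell (Il4ra, Il13ra1, Jak3 and Stat6), at an adjusted p under 0.05 in edgeR's quasi-likelihood test. Of all tested genes, 30.1% rose and 30.4% fell, so the number of members that changed is close to that of genes at large. By at least 2.5-fold, 4 members changed (Il13ra1, Irs2, Socs1 and Cish), against 11.5% of all genes. The members were chosen with earlier results of these data known, so these counts are descriptions and not independent support. By role, the receptor chains fell or did not pass the test, and the adaptor and both inhibitors rose.

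The receptor chains were measured first. Il4ra (chr7:125151079-125182844, GRCm39), the chain common to both receptors, was at 160.3, 171.6, 182.9 and 163.0 CPM in naive cells of mice 1, 2, 4 and 5 and at 84.7, 89.0, 100.0 and 93.8 CPM with IL-4/IL-13. The groups did not overlap, and Il4ra fell by 0.88 on the log2 scale (SE 0.05, adjusted p = 4.2e-13). With tunicamycin it stood at 154.8, 163.3, 174.0 and 154.1 CPM, a rise of 0.81 over IL-4/IL-13 alone (log2, SE 0.05, adjusted p = 7.4e-13). These libraries overlapped with the naive ones, and the difference from naive did not pass the test (log2 difference of -0.07, SE 0.05, adjusted p = 0.24), but did with upper-quartile normalization (adjusted p = 0.018) and with at least 10 counts in every library (0.038). Sal003 left Il4ra at 95.4 ± 2.76 CPM (SD, n = 4) and oligomycin set B at 88.9 ± 3.33 CPM, and neither passed the test against IL-4/IL-13 (adjusted p = 0.43 and 0.50). Oligomycin set A, at 104.2 ± 5.06 CPM, rose by 0.18 (log2, SE 0.05, adjusted p = 0.005), a call that was lost without mouse 2 (adjusted p = 0.056). Il4ra was thus lower with cytokines in every group but tunicamycin.

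Il13ra1 (chrX:35375461-35435331), the partner of IL-4Rα in the type II receptor, had the widest range of the receptor chains. Its level was 23.4, 20.1, 27.7 and 22.8 CPM in naive cells and 5.63, 5.70, 6.53 and 5.64 CPM with IL-4/IL-13, a fall by 2.00 on the log2 scale (SE 0.10, adjusted p = 3.1e-15) or 3.99-fold. With tunicamycin it reached 44.6, 47.3, 48.5 and 40.8 CPM. That was 7.69-fold above IL-4/IL-13 alone (adjusted p = 1.8e-19) and 1.93-fold above naive cells (adjusted p = 7.6e-11), with no overlap between the groups in either comparison. Intermediate levels were found with Sal003 (10.7 ± 0.525 CPM), oligomycin set A (13.3 ± 0.885 CPM) and set B (12.9 ± 1.36 CPM), all higher than IL-4/IL-13 alone in 4 of 4 mice, with log2 rises of 0.87 (SE 0.10, adjusted p = 1.2e-07), 1.18 (SE 0.10, adjusted p = 1.4e-10) and 1.13 (SE 0.10, adjusted p = 7.6e-10). Both oligomycin sets were lower than naive cells and did not differ from each other beyond their spread (log2 difference of 0.05, SE 0.09, adjusted p = 0.68).

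Il2rg (chrX:100307984-100311861), the common γ chain that IL-4 shares with other cytokines, behaved differently. It was at 112.8 ± 9.38 CPM in naive cells and 107.4 ± 3.38 CPM with IL-4/IL-13, which did not pass the test (adjusted p = 0.31). All inhibitor groups were higher than IL-4/IL-13 alone in 4 of 4 mice, by 0.81 on the log2 scale with Sal003 (SE 0.06, adjusted p = 2e-11), 0.43 for set B (SE 0.06, adjusted p = 9.8e-07), 0.36 for set A (SE 0.06, adjusted p = 7.7e-06) and 0.23 with tunicamycin (SE 0.06, adjusted p = 0.0012). With Sal003 the libraries were at 187.7, 181.6, 178.7 and 205.4 CPM, above all others. The receptor chains therefore did not move together: tunicamycin gave the highest Il13ra1, Sal003 the highest Il2rg, and naive cells and tunicamycin the highest Il4ra. Summed, the 3 chains were at 305.8 ± 20.0 CPM in naive cells, 205.2 ± 9.92 CPM with IL-4/IL-13 and 332.5 ± 17.3 CPM with tunicamycin.

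**Figure D2:**
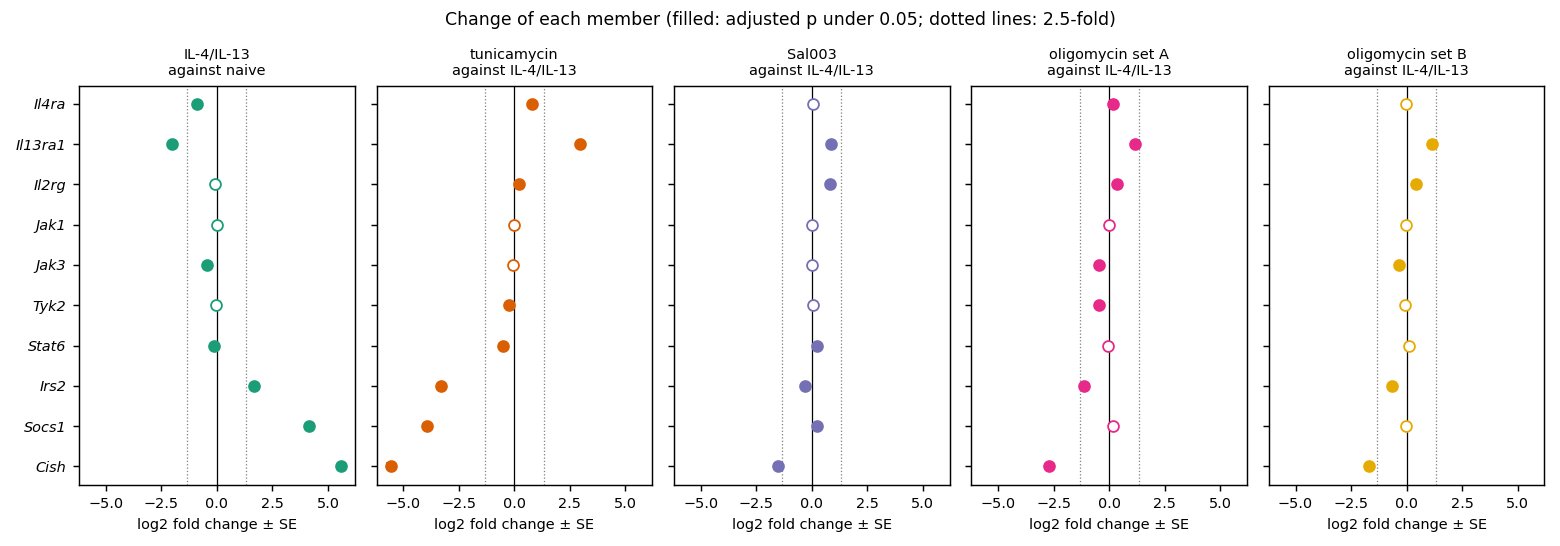
Log2 fold change ± SE (x axis) of the 10 genes (y axis) with IL-4/IL-13 against naive cells and with each inhibitor against IL-4/IL-13. Filled points passed an adjusted p of 0.05, dotted lines mark 2.5-fold, and the tunicamycin panel holds 4 genes beyond these lines.

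With tunicamycin against IL-4/IL-13, 3 members rose (the receptor chains) and 5 fell (Tyk2, Stat6, Irs2, Socs1 and Cish), against 38.7% and 37.6% of all genes. By at least 2.5-fold, 4 changed, against 22.6%. Sal003 gave 4 rises and 2 falls, against 25.9% and 24.6% of all genes, and 1 member (Cish) beyond 2.5-fold, against 7.71%. In oligomycin set A, 3 members rose and 4 fell, against 34.0% and 32.2%, and 1 (Cish) passed 2.5-fold, against 12.7%. In set B, 2 rose and 3 fell, against 27.9% and 26.4%, and 1 (Cish) passed 2.5-fold, against 7.96%. These comparisons share the IL-4/IL-13 libraries as their control, and the choice of members with earlier results known applies to their counts as well. The fall of Cish was the one change of at least 2.5-fold present in all of them.

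Among the kinases, Jak1 did not pass the test anywhere. Jak1, the kinase bound to IL-4Rα, had condition means between 289.2 and 300.7 CPM, and none of 15 pairwise comparisons of conditions called it, with a largest log2 difference of 0.06. Jak3, the kinase bound to the γ chain, was at 52.8 ± 4.67 CPM in naive cells and 39.3 ± 3.67 CPM with IL-4/IL-13, a fall by 0.43 on the log2 scale (SE 0.08, adjusted p = 3.4e-05). It was lower still in oligomycin set A (29.0 ± 0.429 CPM) and set B (30.9 ± 3.96 CPM), with falls by 0.44 (SE 0.08, adjusted p = 3.3e-05) and 0.34 (SE 0.08, adjusted p = 0.00079) from IL-4/IL-13. Tyk2, the kinase bound to IL-13Rα1, did not pass the test with IL-4/IL-13 (143.4 ± 2.15 CPM against 148.0 ± 11.8 CPM in naive cells, adjusted p = 0.42). It fell in oligomycin set A to 104.5 ± 0.514 CPM (log2 change of -0.46, SE 0.05, adjusted p = 1e-08) and with tunicamycin to 123.3 ± 3.06 CPM (-0.22, SE 0.05, adjusted p = 0.00029). The exons of Jak3 share 13.4% of their bases with B3gnt3 on the other strand and 8.08% with Insl3 on the same strand, and those of Jak1 share 18.0% with Raver2. Whether reads were counted by strand is not given in the sources used here, so reads from such stretches cannot be told apart.

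Stat6 (chr10:127477821-127496862) was among the most abundant members and was lowest with tunicamycin, at 216.3, 210.8, 223.2 and 214.6 CPM. With IL-4/IL-13 it was at 298.0, 309.1, 302.2 and 316.3 CPM, so that all tunicamycin libraries were lower (log2 change of -0.50, SE 0.04, adjusted p = 6.2e-11). Sal003 gave the highest mean, at 360.3 ± 8.53 CPM, a rise of 0.23 over IL-4/IL-13 (log2, SE 0.04, adjusted p = 4.4e-05). Naive cells came next, at 331.1 ± 18.8 CPM, and Sal003 was higher by 0.12 (log2, SE 0.04, adjusted p = 0.014). That call was lost with upper-quartile normalization (adjusted p = 0.14), with only the groups compared (0.12) and without mouse 1 or 2 (0.057 and 0.09). The oligomycin sets did not pass the test against IL-4/IL-13 (set A at 292.5 ± 6.996 CPM, adjusted p = 0.16, and set B at 325.3 ± 13.8 CPM, adjusted p = 0.084), although set A passed it with DESeq2 (adjusted p = 0.036) and with at least 10 counts in every library (0.046). The fall by 0.11 (SE 0.04) from naive cells with IL-4/IL-13 had an adjusted p of 0.024, although the groups overlapped, and was lost with DESeq2 (adjusted p = 0.072), without the filter on low counts (0.33), with only the groups compared (0.12) and without mouse 1, 4 or 5 (adjusted p = 0.20, 0.16 and 0.11).

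Irs2 (chr8:11034681-11059499), the adaptor that couples the receptor to PI3K, was called in all 15 comparisons. It rose from 24.6, 17.5, 26.7 and 30.6 CPM in naive cells to 75.4, 74.6, 83.0 and 85.3 CPM with IL-4/IL-13 (log2 change of 1.67, SE 0.11, adjusted p = 8.3e-13). Under tunicamycin it was at 7.03, 8.66, 7.54 and 8.71 CPM, below the cytokine level by 3.31 (log2, SE 0.12, adjusted p = 3.6e-18) and below the naive level by 1.64 (SE 0.13, adjusted p = 1.6e-11). Irs2 thus fell past the level of unstimulated cells. Set A, at 35.9 ± 1.36 CPM, and set B, at 50.3 ± 2.82 CPM, were lower than IL-4/IL-13 by 1.15 (SE 0.10, adjusted p = 4.3e-10) and 0.66 (SE 0.10, adjusted p = 4.7e-06), and set A was lower than set B (adjusted p = 0.0005). Sal003 gave 65.3 ± 8.34 CPM (log2 change of -0.29, SE 0.10, adjusted p = 0.02), a call lost without mouse 1 (adjusted p = 0.092) or mouse 5 (adjusted p = 0.10).

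Socs1 (chr16:10600104-10603875), which inhibits JAK kinases directly, was at 3.32, 5.06, 3.65 and 2.63 CPM in naive cells and at 70.6, 65.3, 54.0 and 65.1 CPM with IL-4/IL-13, a 17.5-fold rise (log2 change of 4.13, SE 0.13, adjusted p = 8.4e-19). With tunicamycin it was at 3.95, 4.76, 3.86 and 4.08 CPM, a fall by 3.93 (SE 0.13, adjusted p = 3.1e-19), and the difference from naive cells did not pass the test (adjusted p = 0.30). The other inhibitors left it high. Oligomycin set A was at 74.9, 73.8, 68.6 and 67.0 CPM and set B at 60.3, 67.3, 52.2 and 71.1 CPM, with log2 differences from IL-4/IL-13 of 0.16 (SE 0.10, adjusted p = 0.15) and -0.02 (SE 0.10, adjusted p = 0.88). Sal003, at 75.2 ± 6.14 CPM, passed the test with a rise of 0.24 (SE 0.10, adjusted p = 0.04). This small rise was lost with DESeq2 (adjusted p = 0.063), upper-quartile normalization (0.094), at least 10 counts in every library (0.058) and without mouse 1, 4 or 5 (0.059, 0.11 and 0.15).

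Cish (chr9:107173225-107179983), whose product CIS binds phosphorylated receptors, showed the largest range of the 10 genes, with 48.6-fold between its lowest and highest condition means. It was at 2.00, 1.76, 1.34 and 2.24 CPM in naive cells and at 93.0, 93.4, 83.0 and 87.3 CPM with IL-4/IL-13 (log2 change of 5.59, SE 0.16, adjusted p = 9.1e-20). With tunicamycin, at 1.28, 2.67, 1.64 and 1.83 CPM, it overlapped with naive cells (adjusted p = 0.94) and was 47.4-fold lower than with cytokines alone (adjusted p = 1.9e-20). Sal003 gave 31.5, 31.0, 38.6 and 24.2 CPM, 2.85-fold lower (log2 change of -1.51, SE 0.11, adjusted p = 2.5e-11). In set A the libraries were at 14.2, 14.8, 13.0 and 12.5 CPM, 6.54-fold lower than IL-4/IL-13 (adjusted p = 4.3e-16), and for set B at 31.3, 26.3, 31.1 and 23.7 CPM, 3.19-fold lower (adjusted p = 3.7e-12). None of these groups overlapped with IL-4/IL-13 alone. The exons of Cish share 26.3% of their bases with predicted genes on the other strand, and those of Socs1 share 12.4%.

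Socs1 and Cish were therefore compared within each library, where scaling and depth cancel, as the log2 ratio of Cish to Socs1 counts with 0.5 added to each. With IL-4/IL-13 alone the ratio was 0.40, 0.52, 0.62 and 0.42 in the 4 mice. It was -1.19, -1.26, -0.87 and -1.80 with Sal003, -2.40, -2.32, -2.40 and -2.42 in oligomycin set A, and -0.95, -1.36, -0.75 and -1.59 for set B. All inhibited libraries were lower than all cytokine-only libraries. The mean difference from IL-4/IL-13 was -1.77 for Sal003, -2.87 for set A and -1.65 for set B, in 4 of 4 mice each, and set A was lower than set B by 1.22. Each had an exact two-sided permutation p of 0.0286, which 4 against 4 libraries cannot go below (0.0286 also after adjustment over 5 comparisons). This test treats libraries of the same mouse as independent, and an exact test within mice gave a p of 0.125 for each, the smallest that 4 pairs allow. With tunicamycin, where both genes were near their naive levels, the ratio was -1.20 ± 0.32, against -0.97 ± 0.61 in naive cells. This ratio was chosen after the values of the genes had been seen, so its p-values add no support beyond the values themselves.

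**Figure D3:**
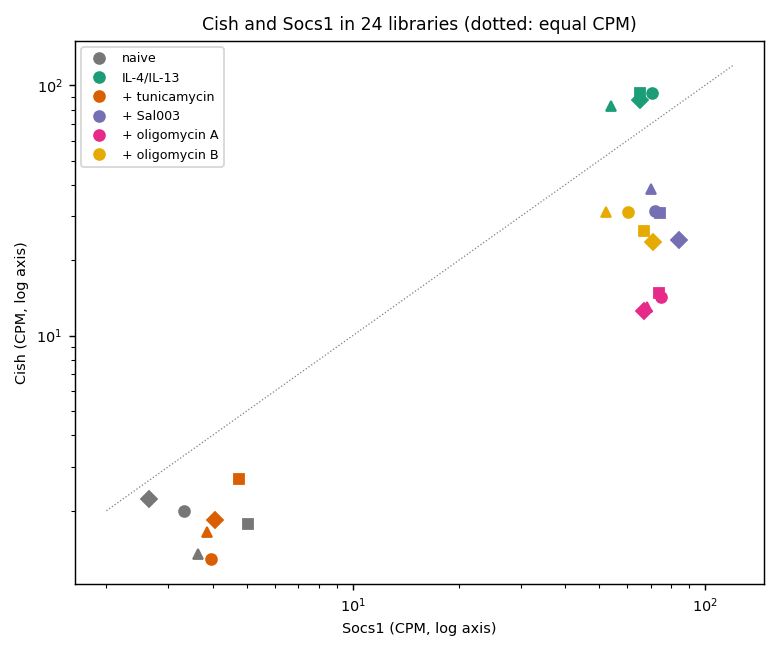
Cish against Socs1 in CPM (both axes logarithmic), with 1 point per library, colours for conditions and shapes for mice as in the plot of levels. Sal003 and both oligomycin sets keep the Socs1 level of IL-4/IL-13 at lower Cish, while tunicamycin lies with naive cells.

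To set the genes side by side, the difference from naive cells under an inhibitor was expressed as a share of the difference with IL-4/IL-13 alone in the same mouse, on the CPM scale. For Socs1 the share was 119.95% ± 14.2 with Sal003, 113.1% ± 11.5 for set A and 98.5% ± 10.7 for set B (SD, n = 4). For Cish it was 33.9% ± 8.33, 13.5% ± 1.03 and 30.1% ± 5.17, and for Irs2 73.7% ± 14.0, 20.1% ± 9.86 and 46.5% ± 6.90. Among the genes that fell with cytokines, Il4ra kept 95.3% ± 7.47 of its fall with Sal003, 84.3% ± 7.64 for set A and 103.7% ± 5.77 for set B, and Il13ra1 kept 71.6% ± 8.36, 56.7% ± 8.68 and 59.4% ± 10.8. With tunicamycin, the share was 0.02% ± 0.81 for Cish, 0.79% ± 1.17 for Socs1 and 10.2% ± 2.35 for Il4ra, and negative for Irs2 (-31.0% ± 10.7) and Il13ra1 (-128.0% ± 41.8), both of which passed beyond the naive level. The shares were also taken on the log2 CPM scale, which gives low values more weight, with a small constant added to CPM before the logarithm. There the shares of Cish were 71.2% with Sal003, 49.3% for set A and 68.5% for set B. On that scale the shares with tunicamycin were -96.2% for Irs2 and -49.9% for Il13ra1, the reverse of their order on the CPM scale, while Irs2 stood at 31.1% for set A and Il13ra1 at 56.9% with Sal003. Of the 20 shares, 12 moved by more than 1 SD between the scales.

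**Figure D4:**
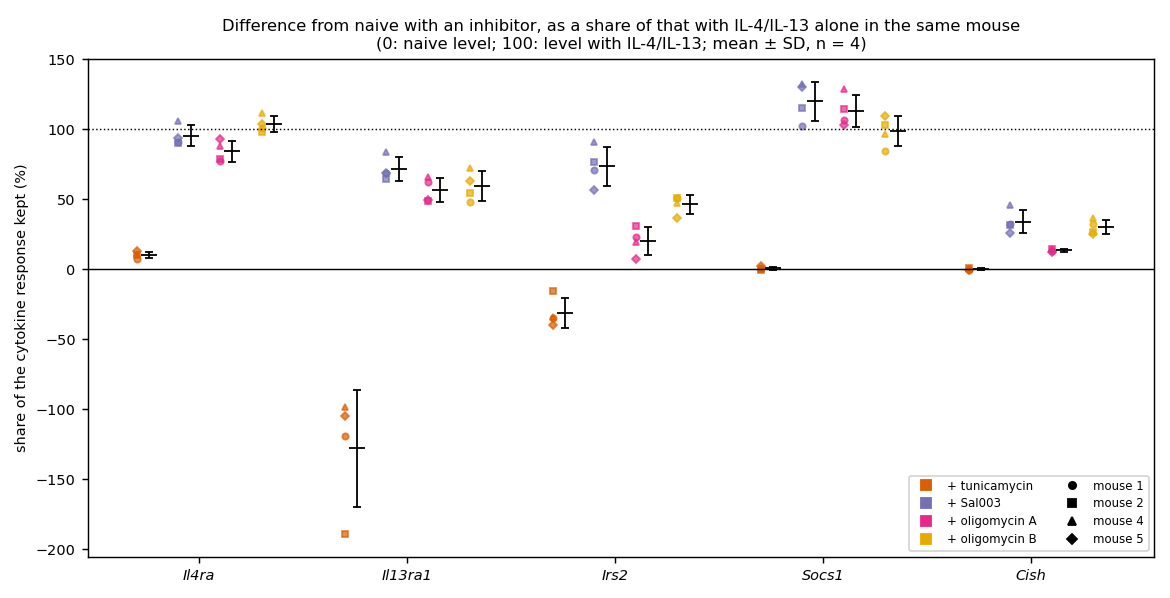
Share of the cytokine response kept (y axis, percent; 0 is the naive level and 100 the level with IL-4/IL-13 of the same mouse) for 5 genes with each inhibitor, with 1 point per mouse and the mean ± SD (n = 4). Socs1 stays near 100 except with tunicamycin, Cish lies between 12.1 and 45.6 with the other inhibitors, and Il13ra1 and Irs2 lie below 0 with tunicamycin.

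Between the oligomycin sets, 1 member was higher for set A (Il4ra, log2 difference of 0.23, SE 0.05, adjusted p = 0.0014) and 4 were lower (Cish, Irs2, Tyk2 and Stat6), against 19.9% and 21.3% of all genes, and none by 2.5-fold, against 2.62%. The largest difference was that of Cish (-1.04, SE 0.12, adjusted p = 1.9e-07), followed by Irs2 (-0.49, SE 0.10), Tyk2 (-0.38, SE 0.05, adjusted p = 8.4e-07) and Stat6 (-0.15, SE 0.04, adjusted p = 0.0043), the last lost without mouse 5 (adjusted p = 0.062). Socs1 did not pass (0.18, SE 0.09, adjusted p = 0.14), and passed without mouse 5 (adjusted p = 0.037). If library sizes are taken from total counts in place of TMM, set A shifts upward against set B by 0.118 on the log2 scale. Such a shift makes the falls for set A smaller, that of Stat6 (-0.15) most in proportion, and the rise of Il4ra larger. The test was not repeated with this scaling.

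The conditions could be ordered for each gene by their means, and neighbours that did not differ (adjusted p of 0.05 or more) were noted. For Cish the order was IL-4/IL-13, Sal003, set B, set A, tunicamycin and naive, and Sal003 with set B (adjusted p = 0.38) and tunicamycin with naive (0.94) did not differ. The order of Irs2 was IL-4/IL-13, Sal003, set B, set A, naive and tunicamycin, with all neighbours different, although Sal003 and set B no longer were without mouse 1 (adjusted p = 0.06) or mouse 4 (0.092). In the order of Socs1, only set B and tunicamycin differed as neighbours, with Sal003, set A and IL-4/IL-13 above and naive below. Il13ra1 ran from tunicamycin through naive, set A, set B and Sal003 to IL-4/IL-13. Here set A and set B did not differ, and set B and Sal003 had an adjusted p of 0.052, or 0.044 with the mouse as a block. For Il4ra, naive and tunicamycin did not differ and stood above set A, Sal003, IL-4/IL-13 and set B. In this lower level, set A and Sal003 had an adjusted p of 0.052, or 0.013 with the mouse as a block. Il2rg ran from Sal003 through set B, set A and tunicamycin to naive and IL-4/IL-13. Set B and set A (adjusted p = 0.37) and naive and IL-4/IL-13 (0.31) did not differ. Tunicamycin and naive did (0.018), but not with upper-quartile normalization (0.18) or at least 10 counts in every library (0.10), and set A and tunicamycin had an adjusted p of 0.053, or 0.047 with the mouse as a block. Against naive cells, 6 members were called with tunicamycin, 8 with Sal003, 9 for set A and 8 for set B, where 77.6%, 62.5%, 71.0% and 63.8% of all genes were. Between inhibitors, 8 were called for tunicamycin against Sal003 (71.9% of all genes), 8 for tunicamycin against set A (63.5%), 9 for tunicamycin against set B (71.1%), 7 for set A against Sal003 (51.5%) and 4 for set B against Sal003 (18.5%). The last count was 2 without mouse 1 or mouse 4 and 6 with DESeq2, upper-quartile normalization or the mouse as a block, which called Socs1 as lower for set B (adjusted p = 0.019 against 0.06).

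Levels of different genes were compared per kilobase (kb) of exon. In naive cells the highest were Stat6 (49.5 ± 2.81 CPM per kb), Il2rg (47.3 ± 3.93), Jak1 (27.4 ± 3.02) and Il4ra (17.0 ± 1.02), and the lowest were Socs1 (1.08 ± 0.302) and Cish (0.286 ± 0.0595). With IL-4/IL-13 the level of Socs1 was 18.8 ± 2.06 CPM per kb and that of Cish 13.9 ± 0.778, both above Il4ra (9.21 ± 0.658), Jak3 (5.04 ± 0.471) and Il13ra1 (1.24 ± 0.0925). The inhibitor genes thus passed from the bottom of the order of the set to places above the receptor chain Il4ra. These lengths take in every annotated exon, and with the longest transcript alone Il4ra would be at 15.1 and Cish at 19.0 CPM per kb.

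For the 4 members that changed by at least 2.5-fold, the 3 genes with the most similar profile were found as the smallest root mean square (RMS) difference of centred log2 CPM over the 6 condition means. A small constant was added to CPM before the logarithm, which has no value at 0 CPM. Those nearest to Irs2 were Traf5 (0.12), Abcg1 (0.13), a cholesterol exporter, and Klhl33 (0.15). Il13ra1 was nearest to Calhm6 (0.18), Tmem38b (0.21) and Lca5 (0.22). Socs1 was nearest to Gm5345 (0.23), Bhlhe40 (0.32), a transcriptional repressor, and Flrt2 (0.37), and the RMS difference between Socs1 and Cish was 0.83. Cish had Il31ra (0.33), a cytokine receptor chain, Scn3a (0.36) and F7 (0.44), the gene of coagulation factor VII. Il31ra was at 38.2 CPM with IL-4/IL-13, 8.24 CPM with Sal003, 2.89 CPM for set A and 7.35 CPM for set B. In naive cells and with tunicamycin it was at 0.0134 and 0 CPM, and Scn3a at 0.0505 and 0.0127 CPM. At such levels the added constant largely sets the log2 value. The closeness of Il31ra and Scn3a to Cish therefore depends on this constant, and other constants were not tested. Bhlhe40 was at 267.7 CPM with IL-4/IL-13 and between 180.7 and 248.4 CPM with Sal003 and the oligomycin sets, against 13.6 CPM with tunicamycin.

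Among 50 other genes of the pathway, listed by role with earlier results of these data known, 43 passed the filter on low counts. With IL-4/IL-13, 17 rose and 18 fell, where 30.1% of all genes rose and 30.4% fell, with a median log2 change of -0.04 against -0.02 for all genes. Tunicamycin gave 16 rises and 21 falls (38.7% and 37.6% of all genes), Sal003 15 and 15 (25.9% and 24.6%), set A 14 and 17 (34.0% and 32.2%), and set B 15 and 11 (27.9% and 26.4%). Set A against set B gave 5 rises and 21 falls (19.9% and 21.3%), with a median of -0.20 against 0.00 for all genes. With library sizes from total counts, both medians would be higher by about 0.118, and these counts were not repeated with that scaling. The ligand genes were hardly counted: Il4 and Il13 had at most 1 count in any library, and the decoy receptor Il13ra2 at most 6. Il2ra, Il2rb, Il9r and Irs1 were also too low to test.

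Of the other suppressors of cytokine signalling, 3 of 6 changed by at least 2.5-fold with IL-4/IL-13 (Socs2, Socs3 and Socs6), against 11.5% of all genes. Socs2, which restrains growth hormone signals, rose from 3.18 ± 0.902 to 64.0 ± 2.74 CPM (log2 change of 4.32, SE 0.14, adjusted p = 2.4e-18). It fell below the cytokine level in all inhibitor groups, to 0.889 ± 0.445 CPM with tunicamycin, 8.51 ± 0.899 CPM with Sal003, 5.39 ± 0.546 CPM for set A and 12.7 ± 1.56 CPM for set B. Socs6 rose from 63.0 ± 3.64 to 248.4 ± 6.78 CPM and was 94.3 ± 3.04 to 149.7 ± 9.07 CPM with inhibitors. Socs3, which acts on receptors of the IL-6 type, went the other way: it fell from 14.4 ± 1.29 to 3.71 ± 0.784 CPM with IL-4/IL-13 and rose to 40.9 ± 1.15 CPM with tunicamycin (log2 change of 3.47, SE 0.13, adjusted p = 5.6e-18) and 10.1 ± 0.607 CPM for set A, but for set B, at 3.41 ± 0.781 CPM, it did not pass the test (adjusted p = 0.67).

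Of the other JAK and STAT genes, 2 of 7 rose and 4 fell with IL-4/IL-13, against 30.1% and 30.4% of all genes. Stat2, which carries interferon signals, fell from 269.6 ± 32.1 to 105.3 ± 6.68 CPM (log2 change of -1.36, SE 0.17, adjusted p = 1.8e-07). It rose again with Sal003 (383.0 ± 95.1 CPM), for set A (277.2 ± 30.3 CPM) and for set B (379.7 ± 118 CPM), but fell further with tunicamycin (76.9 ± 3.19 CPM, adjusted p = 0.02). Stat4 was low throughout, at 1.35 ± 0.197 CPM in naive cells, 0.262 ± 0.0433 CPM with IL-4/IL-13 (adjusted p = 1.7e-07) and 1.29 ± 0.271 CPM with tunicamycin (adjusted p = 1.5e-07). Parp14, a cofactor of STAT6 that is also induced by interferon, was at 482.0 ± 51.4 CPM in naive cells, 151.1 ± 9.24 CPM with IL-4/IL-13, 110.1 ± 6.69 CPM with tunicamycin and 368.5 ± 30.6 to 473.5 ± 86.8 CPM with the others. Snd1, another STAT6 cofactor, rose most with tunicamycin, from 145.4 ± 10.9 to 372.4 ± 15.4 CPM (log2 change of 1.36, SE 0.05, adjusted p = 1.1e-17).

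The 4 other receptor chains that could be tested comprised 3 that rose and 1 that fell with IL-4/IL-13 (30.1% and 30.4% of all genes). Il7r, which pairs with the γ chain, rose from 126.8 ± 14.96 to 176.0 ± 16.4 CPM and rose further to 334.6 ± 9.43 CPM with Sal003, 401.1 ± 16.9 CPM for set A and 487.2 ± 27.4 CPM for set B, while tunicamycin lowered it to 17.4 ± 3.08 CPM (log2 change of -3.35, SE 0.10, adjusted p = 3.5e-20). Il15ra was at 5.48 ± 0.339 CPM with IL-4/IL-13 and 2.16 ± 0.456 CPM with tunicamycin (adjusted p = 8.4e-10). Of 6 phosphatase genes, 3 rose and 3 fell with IL-4/IL-13, against the same shares. Ptpn6, which encodes SHP-1, fell from 521.8 ± 10.5 to 207.5 ± 6.71 CPM and was at 483.4 ± 16.1 CPM with tunicamycin, 265.1 ± 16.3 CPM with Sal003, 133.3 ± 6.26 CPM for set A and 213.9 ± 17.6 CPM for set B.

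In the adaptor and PI3K arm, 5 of 14 genes rose and 5 fell with IL-4/IL-13, close to the 30.1% and 30.4% of all genes. Against IL-4/IL-13, 5 rose and 8 fell with tunicamycin (38.7% and 37.6% of all genes), and 3 rose and 5 fell with Sal003 (25.9% and 24.6%). For set A 2 rose and 8 fell (34.0% and 32.2%), and for set B 4 rose and 6 fell (27.9% and 26.4%). Dok2, a docking adaptor, rose from 85.3 ± 13.9 to 441.0 ± 21.4 CPM and fell to 30.3 ± 2.49 CPM with tunicamycin, 120.04 ± 14.3 CPM with Sal003, 59.7 ± 2.91 CPM for set A and 119.8 ± 5.31 CPM for set B. Shc1, which links receptors to RAS, rose from 107.0 ± 2.65 to 290.5 ± 10.8 CPM. It fell to 210.3 ± 5.83 CPM with tunicamycin, 139.9 ± 10.6 CPM with Sal003, 123.3 ± 2.43 CPM for set A and 171.4 ± 13.5 CPM for set B. A list of 14 known STAT6 target genes of macrophages, of which 12 passed the filter, was drawn up with earlier results of these data known. Its genes were chosen as induced by IL-4, and several, such as Ccl17 (listed at 0 to 0.0536 CPM in naive cells and at 0 with tunicamycin), passed the filter only through the groups with cytokines. The rise of all 12 with IL-4/IL-13 was therefore set by the choice and is no finding. Their fall with tunicamycin was favoured by the same choice, though not fixed by it, and is not taken as a finding either. Against IL-4/IL-13, 10 fell and 2 rose with Sal003 (24.6% and 25.9% of all genes), 10 fell and 1 rose for set A (32.2% and 34.0%), and 8 fell and 1 rose for set B (26.4% and 27.9%), counts to which the same choice applies.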

How the data were processed

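Gene counts of 24 RNA-seq libraries were analysed. Raw counts per gene were deposited by the authors without normalization, made with htseq-count from STAR alignments to GRCm39. Adapters had been trimmed with Cutadapt and reads from ribosomal RNA or of low complexity discarded. The 5 rows that name no gene (12.74% to 15.231% of reads) were left out. The RSEM values were left out, since 28 header names stand above lines of 25 cells. Counts were tested with edgeR 4.0.16 (TMM, filterByExpr by group, quasi-likelihood test, 1 model of 6 conditions without a block) in R 4.3.3, with Benjamini-Hochberg adjustment over 13679 genes. A gene was called at an adjusted p under 0.05, and the SE is the size of the log2 fold change divided by the square root of its F statistic. CPM used TMM library sizes, coordinates and exon lengths GENCODE vM39 (GRCm39), and promoters RefSeq windows. Same-numbered libraries came from the same mouse (median correlation of their deviations from condition means 0.27, with 56 of 60 pairs above 0.1). P-values of the main test rest on the spread between the libraries of a condition, each from a different mouse. They treat libraries of the same mouse in different conditions as independent, which the replicate block does not. The counts of replicates differed by more than sampling noise (chi-square per gene at least 2.20). The test was repeated with DESeq2 1.42.0, with upper-quartile scaling, without a filter or with at least 10 counts in every library, on only the groups compared, with a replicate block and without each mouse, and levels also with CPM from total counts and longest-transcript lengths. The edgeR step was tested on simulated counts with known changes, for IL-4/IL-13 against naive cells. Named pathway genes were up to 4 per role list that changed by at least 2.5-fold, taken in order of size (1 of them is not reported here), and similar profiles needed a mean of 50 counts. Members and lists were chosen with earlier results of these data known. The shares of the response kept and the ratio of Cish to Socs1 were added after their values had been seen, with their alternatives.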

Additional observations from a re-analysis of the deposited data

Results flagged for a closer look

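The 4 libraries of each condition were checked for a value far from the other 3 by Dixon's ratio at the 95% level, for each of the 10 genes in 6 conditions. Of these 60 groups, 6 held such a value, where chance gives about 1 in 20. With IL-4/IL-13, mouse 4 was highest for Il13ra1 (6.53 CPM, others 5.63 to 5.70 CPM) and for Jak1 (315.3 CPM, others 287.0 to 291.0 CPM), and mouse 5 was highest for Tyk2 (146.6 CPM, others 142.2 to 142.5 CPM). In oligomycin set B, mouse 1 was lowest for Il4ra (84.0 CPM, others 90.2 to 91.3 CPM) and highest for Il13ra1 (14.9 CPM, others 11.96 to 12.3 CPM). With Sal003, mouse 4 was highest for Irs2 (77.8 CPM, others 60.6 to 61.7 CPM).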

How the results depend on the processing

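Of 105 comparisons of single members past the threshold, 93 kept their call under all 10 alternatives to the test and 12 lost it under at least 1, none of them larger than 0.38 on the log2 scale. None of the 105 changed sign, and each of the 59 of at least 1.5-fold kept its call. The numbers of members, pathway genes and all genes called stayed within 1.5 times in the 10 comparisons with naive cells, with IL-4/IL-13 or between the oligomycin sets. Between other inhibitors, where only members were counted, set B against Sal003 gave 2 to 5 members without 1 mouse, in place of 4. With the replicate block, 7 members were called with IL-4/IL-13 against naive cells and 8 with tunicamycin, the same as without it, and apart from 3 comparisons of neighbouring conditions and Socs1 for set B against Sal003, all given in the text, the block changed no call of a member. Among members, signs changed only where neither fit called a difference, and the cause was not tested. For Jak3 with Sal003 against IL-4/IL-13 the value (0.01) became -0.00321 with DESeq2, -0.0268 with upper-quartile normalization, -0.0109 with at least 10 counts and -0.00918 with only the groups compared, and ranged from -0.0275 to 0.0511 without 1 mouse. For Tyk2 with Sal003 against naive it became -0.0518 with upper-quartile normalization, -0.0272 with at least 10 counts, -9.17e-05 with the replicate block and -0.00851 with only the groups compared, and ranged from -0.0655 to 0.0439 without 1 mouse. For Cish with tunicamycin against naive it became -0.0456 with upper-quartile normalization and -0.0306 with at least 10 counts, and ranged from -0.237 to 0.249. Without the filter, Il4ra with tunicamycin and Stat6 in set B against naive became 0.00489 and 0.00439. Without 1 mouse, Stat6 in set B against naive ranged from -0.0807 to 0.0161, Jak3 with tunicamycin from -0.0978 to 0.0554, Socs1 in set B against IL-4/IL-13 from -0.0903 to 0.0363, Socs1 in set A against Sal003 from -0.124 to 0.00318 and Il13ra1 in set A against set B from -0.0128 to 0.176. The log2 ratio of Cish to Socs1 kept its direction without each mouse, with -1.86 to -1.62 for Sal003, -2.90 to -2.83 for set A and -1.75 to -1.53 for set B. Cish had 25 to 45 counts a library in naive cells, which limits the precision at that level.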
